A study of Mus musculus with 2 samples.

Results

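The adventitial fibroblast genes are 9 genes that mark the fibroblasts of the connective tissue sleeve around large airways and blood vessels of the lung. They are Gsn, Dpt, Dpep1, Pi16, Serpinf1, Clec3b, Cygb, Scara5 and Ly6a, chosen by name with earlier results of these data known. Each matched 1 of the 43346 mouse genes in the tables by its identifier. They were read in newborn lung of the mouse strain B6NCrl at postnatal day 0. There are 2 libraries of total RNA, 1 from pup 1 and 1 from pup 3, each made from the lungs of a single animal. The libraries form 1 group with no treatment, mutant or other age beside it, so levels and differences between pup 1 and pup 3 are described and no condition is compared. The labels give the pups 1 pregnancy and a single donor identifier, so the count of 2 replicates rests on the pup numbers, and the spread between them may be technical.

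Adventitial fibroblasts surround the bronchovascular bundles, whereas alveolar fibroblasts lie in the walls of the gas-exchange region. They secrete matrix and matrix-binding proteins, present scavenging and enzymatic activities at their surface, and include a population marked by Pi16 that is regarded as a reservoir of other fibroblasts. None of the 9 genes is restricted to this cell. Gelsolin is made by epithelial, mesothelial and muscle cells, and Ly6a, also called Sca-1, by endothelial cells and blood progenitors. In whole lung, fewer cells of a type and less RNA per cell cannot be told apart.

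All 9 genes were detected at TPM 1 or more in both pups, a level reached by 33.1% of all genes in the tables. TPM is the authors' length-corrected estimate of transcript abundance, scaled to the same total in each library. Levels are given as mean ± SD over the 2 pups. Gelsolin and Ly6a stood far above the others, Dpep1, Dpt, Clec3b and Serpinf1 formed a middle group, Cygb lay lower, and Scara5 and Pi16 were the lowest. The median level of the 9 was 75.7 TPM, against 13.9 TPM over the 14343 detected genes. Their TPM summed to 1690 in pup 1 and 1581 in pup 3, of which Gsn alone held 52.3% and 53.3%. Gsn and Ly6a together held 79.6 ± 0.268% of the sum.

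Expected counts, which are estimated counts with shared reads split between features, summed over genes to 42189536 in pup 1 and 37026165 in pup 3. Genes of lung epithelium were abundant in both, as Sftpc stood at 77317 and 68981 TPM. Markers of muscle, cartilage and adipose tissue, which could lie in the lung or come along with it, differed in level. Cardiac muscle genes (5 of 6 at TPM 1 in both pups) summed to 563 TPM in pup 1 and 646 TPM in pup 3, led by Myl7, Actc1 and Tnnt2, with Ryr2 under TPM 1. Skeletal muscle genes (4 of 5) summed to 45.2 and 48.3 TPM. Cartilage genes (1 of 5, Hapln1) summed to 7.29 and 6.31 TPM, with Col2a1, Acan and Comp under TPM 1 and Matn1 at 0 counts, which allows up to 3 counts. None of the 5 adipocyte genes (Adipoq, Plin1, Cfd, Lep and Cidec) reached TPM 1 in both pups. The source of these transcripts, and the part of cardiac or skeletal muscle in the level of Gsn, were not tested.

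Gelsolin severs and caps actin filaments, and its gene gives a cytoplasmic form and a secreted form that clears actin from plasma. The mouse gene has 3 annotated start regions in RefSeq, and they are shown because the start sets which form is made. On GRCm38.p6, the assembly also called mm10, they are chr2:35256109-35256408, chr2:35266494-35266793 and chr2:35282130-35282429, all on the plus strand. Each window runs from 250 bases before to 50 bases after a start. Capitals mark matches on either strand to 2 motifs, CCAAT (the CCAAT box) and GGGCGG (the GC box), which overlap no other match. The TATA box letters TATAAA were searched for on both strands too.
Gsn start 1: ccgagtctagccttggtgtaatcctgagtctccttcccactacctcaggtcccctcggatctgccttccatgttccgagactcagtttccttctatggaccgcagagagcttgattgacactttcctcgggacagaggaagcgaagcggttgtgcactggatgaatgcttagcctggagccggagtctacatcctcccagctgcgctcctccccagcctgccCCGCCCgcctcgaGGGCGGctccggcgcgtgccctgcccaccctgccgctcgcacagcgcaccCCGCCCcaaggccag
Gsn start 2: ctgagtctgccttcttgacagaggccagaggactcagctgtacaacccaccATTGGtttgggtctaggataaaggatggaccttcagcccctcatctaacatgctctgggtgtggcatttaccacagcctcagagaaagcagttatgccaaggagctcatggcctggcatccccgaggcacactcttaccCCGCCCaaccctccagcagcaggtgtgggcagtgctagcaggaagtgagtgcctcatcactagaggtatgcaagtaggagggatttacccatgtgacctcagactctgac
Gsn start 3: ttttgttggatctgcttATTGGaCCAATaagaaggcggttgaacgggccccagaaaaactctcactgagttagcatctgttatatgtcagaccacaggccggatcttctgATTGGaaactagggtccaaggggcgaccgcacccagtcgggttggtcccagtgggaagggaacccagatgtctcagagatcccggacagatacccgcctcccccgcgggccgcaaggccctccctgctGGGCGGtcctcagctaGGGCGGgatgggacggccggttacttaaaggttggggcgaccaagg

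The window of start 3 ends 50 bases inside the first exon of Gsn-201, the secreted model, and holds 3 CCAAT and 2 GGGCGG matches. Start 1, upstream of the models with a cytoplasmic coding start, holds 3 GGGCGG matches and no CCAAT. Start 2 holds 1 of each, and TATAAA is in none of the 3. GC content is 63.7% at start 1, 54.7% at start 2 and 58.7% at start 3, with 20, 2 and 16 CpG dinucleotides, against medians of 52.7% and 7 over 32851 promoter windows of the same length. CCAAT is found in 37.4%, GGGCGG in 35.7% and TATAAA in 13.6% of those windows. A match only describes the letters. RefSeq windows were also matched for Dpt, Dpep1, Pi16 and Serpinf1, so that 5 of the 9 genes matched. The window of Dpt holds the 1 TATAAA match among the 7 windows of members. Clec3b, Cygb, Scara5 and Ly6a were not matched.

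Gsn (chromosome 2, 35256380 to 35307892, plus strand, gene coordinates here and below from GENCODE M21) stood at 884 TPM in pup 1 and 843 TPM in pup 3 on 71658 and 57976 counts. At 864 ± 29.0 TPM it was gene 114 in the order of all genes and above 99.2% of the detected genes. The pups lay close, with a coefficient of variation of 3.36%.

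Almost the whole gelsolin signal was given to the secreted model. Transcripts were put in a form by their annotated coding start. Gsn-201 begins coding at position 35282464 and gives 780 amino acids with the signal peptide of the secreted form. Gsn-203 begins at 35282698 and Gsn-204 at 35283914, both without that exon, and Gsn-202, a retained-intron model, has no coding sequence and was left unassigned. Gsn-201 held 97.84% of the deposited isoform percent, the authors' share of a gene's abundance per transcript, in pup 1 and 97.49% in pup 3. The cytoplasmic models held 2.07% and 2.38%, as Gsn-204 took 1.43% and 1.53% and Gsn-203 took 0.64% and 0.85%. Gsn-202 held 0.09% and 0.13%. In TPM the secreted form stood at 865 and 822 and the cytoplasmic models at 18.4 and 20.0, and the forms did not overlap in either pup.

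These shares depend on which models the tables hold. GENCODE M21 lists 7 Gsn models, and 4 of them are in the tables. Gsn-205, which starts 26000 bases upstream of Gsn-201, gives the 731-residue cytoplasmic protein and reaches the 3′ end of the gene, is not among them. Gsn-203 and Gsn-204 are models whose 3′ end is open, listed in the tables at 431 and 818 bases against 2653 for Gsn-201. Of the 2653 bases of Gsn-201, 2429 (91.6%) also lie in Gsn-205, and 1802 (67.9%) lie in no other model of the tables by the M21 exons. Reads from those 1802 bases could be given to Gsn-201 only, whichever start their RNA used. By expected counts, which are not corrected for length, the secreted share was 99.5 ± 0.0464%. The share of cytoplasmic gelsolin RNA among the reads of the shared exons was not tested.

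**Figure D1:**
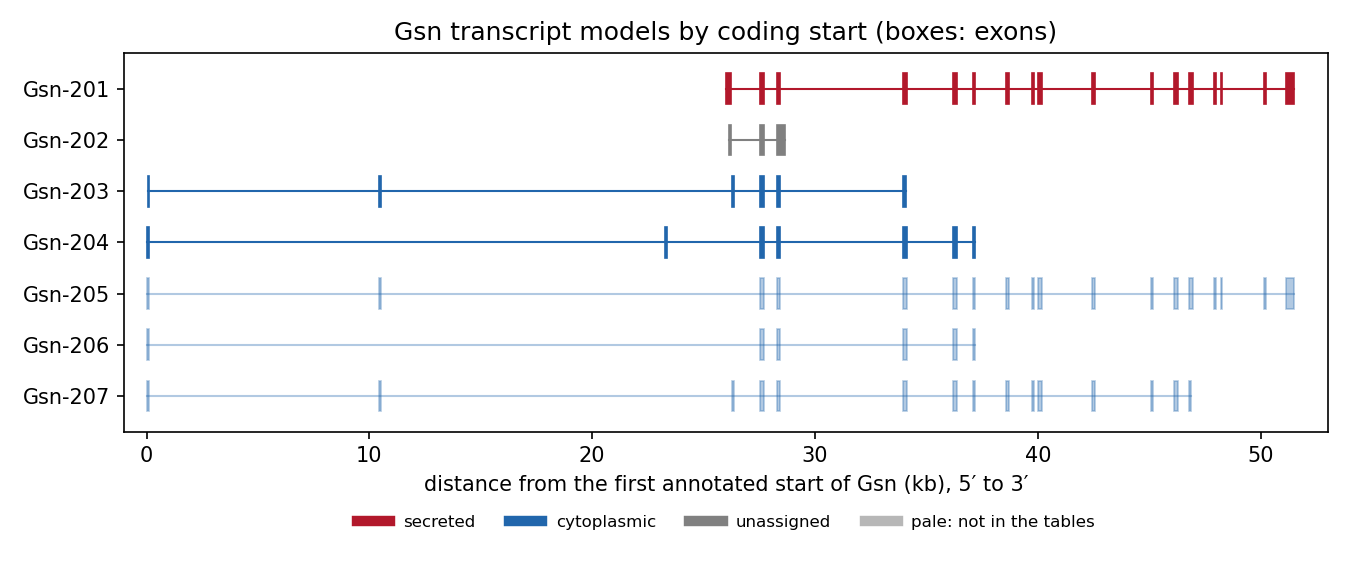
Gsn transcript models of GENCODE M21 drawn to scale along the gene, with distance from the first annotated start in kilobases on the horizontal axis, boxes for exons and colour for the form given by the coding start. Pale models are not in the tables, and Gsn-201 is the 1 model of the tables that reaches the 3′ end.

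Among the 8 genes of the gelsolin superfamily Gsn was the highest and held 75.1% of the family's TPM. Capg, which caps filament ends, followed at 130 TPM in pup 1 and 120 TPM in pup 3. Svil, a membrane-linked family member, stood at 69.41 and 83.96 TPM. Flii followed at 64.1 and 68.8 TPM. Avil, at 0.12 and 0.14 TPM, was under TPM 1 in both pups. Scin had 40 and 80 counts (0.45 and 1.01 TPM). Of the 7 genes listed for the actin pool and for actin scavenging, all were detected, led by Actb (7736 and 7628 TPM), Tmsb4x (6699 and 7076 TPM) and Actg1 (1754 and 2053 TPM). Gc, the plasma protein that binds free actin, stood at 1.28 and 1.02 TPM.

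Ly6a (chromosome 15, 74994877 to 74998031, minus strand) encodes a small surface protein held by a lipid anchor, used as a marker of progenitor cells in mouse. It stood at 465 TPM in pup 1 and 413 TPM in pup 3, on 10964 and 8246 counts, and above 98.0% of detected genes. Gsn exceeded it 1.90-fold in pup 1 and 2.04-fold in pup 3. Ly6a-201 led its 6 models with 77.2% and 79.4%, and Ly6a-204 held 11.7% and 10.6%. The models Ly6a-201 to Ly6a-205 share a coding start and each give 134 amino acids, so these shares describe transcript ends more than proteins.

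Ly6a lies in a cluster of related genes, and 10 genes of the Ly6 family were listed. Ly6e was the highest at 670 TPM in pup 1 and 624 TPM in pup 3, Ly6a was second, and Ly6c1 followed at 421 and 320 TPM. The ranges of Ly6a and Ly6c1 overlapped between the pups, but Ly6a was the higher in each pup. Gpihbp1, the capillary protein that binds lipoprotein lipase, stood at 216 and 149 TPM, and Ly6c2 at 41.9 and 26.9 TPM. Ly6g (0.60 and 0.87 TPM) and Ly6k (0.06 and 0.29 TPM) were under TPM 1 in both pups. Among the listed genes, the nearest in sequence to Ly6a was Ly6i, with 87.4% identity over 807 aligned bases, at 51 counts in each pup. Ly6c1 (84.6%), Ly6g (84.2%) and Ly6c2 (83.6%) came next. No exact window of 100 bases of Ly6a-201 was found in a transcript of another gene, against 114 of the 745 windows of Ly6c1-201 that recur in Ly6c2. The split of reads between Ly6c1 and Ly6c2 is therefore less certain than the level of Ly6a.

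**Figure D2:**
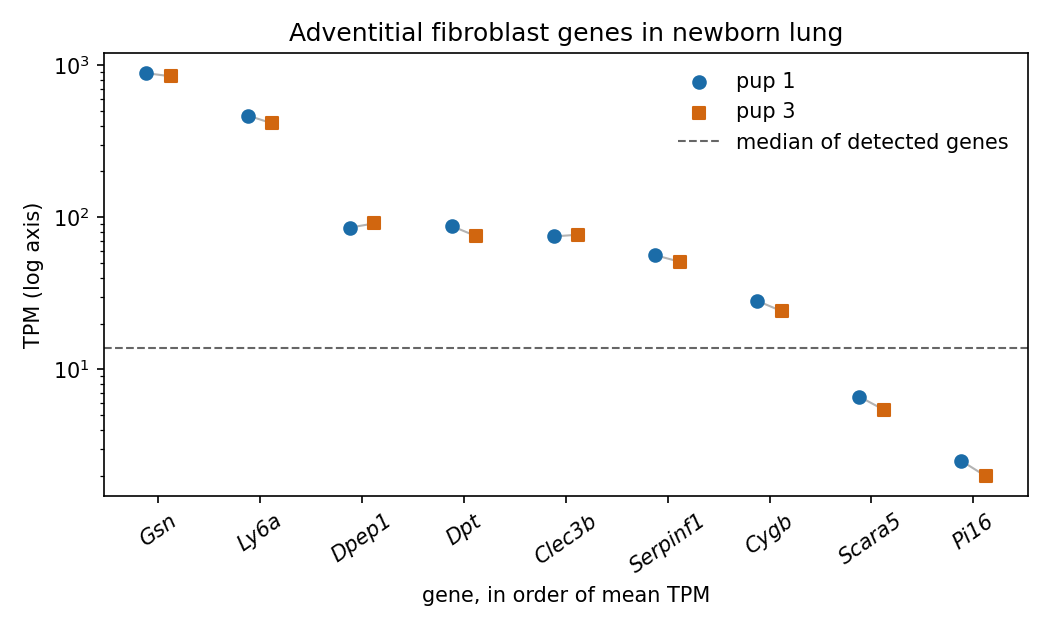
TPM of the 9 genes in pup 1 (circles) and pup 3 (squares) on a log axis, in order of mean TPM, with the median of the detected genes (13.9 TPM) as a dashed line. Gsn and Ly6a lie far above the other genes in both pups, and Scara5 and Pi16 lie below the dashed line.

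Dermatopontin, the product of Dpt, is a matrix protein that binds decorin and speeds collagen fibril assembly. Dpt (chromosome 1, 164796644 to 164824266) stood at 87.4 TPM in pup 1 and 75.0 TPM in pup 3, on 4584 and 3345 counts. All 8 genes listed as its partners were detected. Col3a1 (542 and 567 TPM), Col1a1 (421 and 410 TPM) and Col1a2 (307 and 315 TPM) led them, and decorin (Dcn) stood at 28.9 and 35.2 TPM. Dpt was thus above the decorin gene in both pups and below those collagen genes.

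Dpep1 encodes a membrane dipeptidase that removes glycine in the step from one cysteinyl leukotriene to the next. Dpep1 (chromosome 8, 123186242 to 123201812) stood at 85.4 TPM in pup 1 and 91.0 TPM in pup 3, and its 1 model in the tables held 5904 and 5350 counts. It held 83.7% of the TPM of the 3 membrane dipeptidases, since Dpep2 stood at 18.6 and 15.6 TPM and Dpep3 at 0.04 and 0.12 TPM. Of the 9 leukotriene pathway genes, 7 were detected. Dpep1 was the highest, ahead of Alox5ap (52.1 and 42.8 TPM), which presents arachidonic acid to the lipoxygenase, and Ltc4s (18.6 and 19.0 TPM), the synthase. Ggt1 (0.37 and 0.18 TPM) and the receptor gene Cysltr2 (0.34 and 0.22 TPM) were under TPM 1 in both pups. Cysltr1 stood at 3.60 and 4.00 TPM.

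Clec3b encodes tetranectin, which binds plasminogen. Clec3b (chromosome 9, 123150946 to 123157432) stood at 74.7 TPM in pup 1 and 76.7 TPM in pup 3, and its coefficient of variation of 1.84% was the smallest of the 9. Its relatives Clec11a (3.38 and 2.89 TPM) and Clec3a (0 and 0.15 TPM, on 0 and 2 counts) were far lower. Of the plasminogen system, the receptor gene Plaur (63.9 and 58.7 TPM) and the activator gene Plat (39.5 and 26.8 TPM) were detected in both pups. Plau stood at 0.91 and 1.54 TPM. Plg, the gene of plasminogen itself, which liver makes, was at 0.05 and 0.11 TPM.

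The order in the middle of the list could not be settled. The pup ranges of Dpep1 and Dpt overlapped, and so did those of Dpt and Clec3b, which makes 2 of the 8 neighbouring pairs. Dpt was the higher of the first pair in pup 1 and Dpep1 in pup 3. In the other 6 pairs both pups of the upper gene stood above both pups of the lower one.

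Serpinf1 encodes pigment epithelium-derived factor, a secreted serpin that restrains vessel growth. Serpinf1 (chromosome 11, 75409769 to 75422701, minus strand) stood at 56.2 TPM in pup 1 and 50.9 TPM in pup 3, on 1705 and 1296 counts. It has 8 models in the tables, and its share was the most divided of the 9 genes. Serpinf1-208, a model that the annotation marks for nonsense-mediated decay, led with 40.3% in pup 1 and 42.1% in pup 3. Serpinf1-203, a coding model with an open 3′ end, held 22.8% and 30.5%. Serpinf1-201, which gives the 417-residue protein, held 18.8% and 16.4%. Serpinf1-202 held 10.7% and 1.73% on 98.3 and 12.2 counts. By counts, not corrected for length, Serpinf1-201 took 34.6% and 30.6%, against 37.5% and 39.8% for Serpinf1-208. Together the 2 decay models held 48.7 ± 1.70% of the gene, so the level of RNA that can give the full protein is not fixed by the gene's TPM.

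Among the 6 serpins listed, Serpinf1 stood below 3 in mean TPM. Serpinh1, the collagen chaperone, stood at 463 TPM in pup 1 and 544 TPM in pup 3, Serping1, the inhibitor of complement protease, at 249 and 238 TPM, and Serpine2 at 233 and 242 TPM. Serpinf2 (0.17 and 0.12 TPM) was under TPM 1 in both pups. All 5 genes listed as receptors of the Serpinf1 product were detected, led by Rpsa (323 and 296 TPM), Plxdc2 (98.9 and 94.9 TPM) and Pnpla2 (100 and 83.46 TPM).

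**Figure D3:**
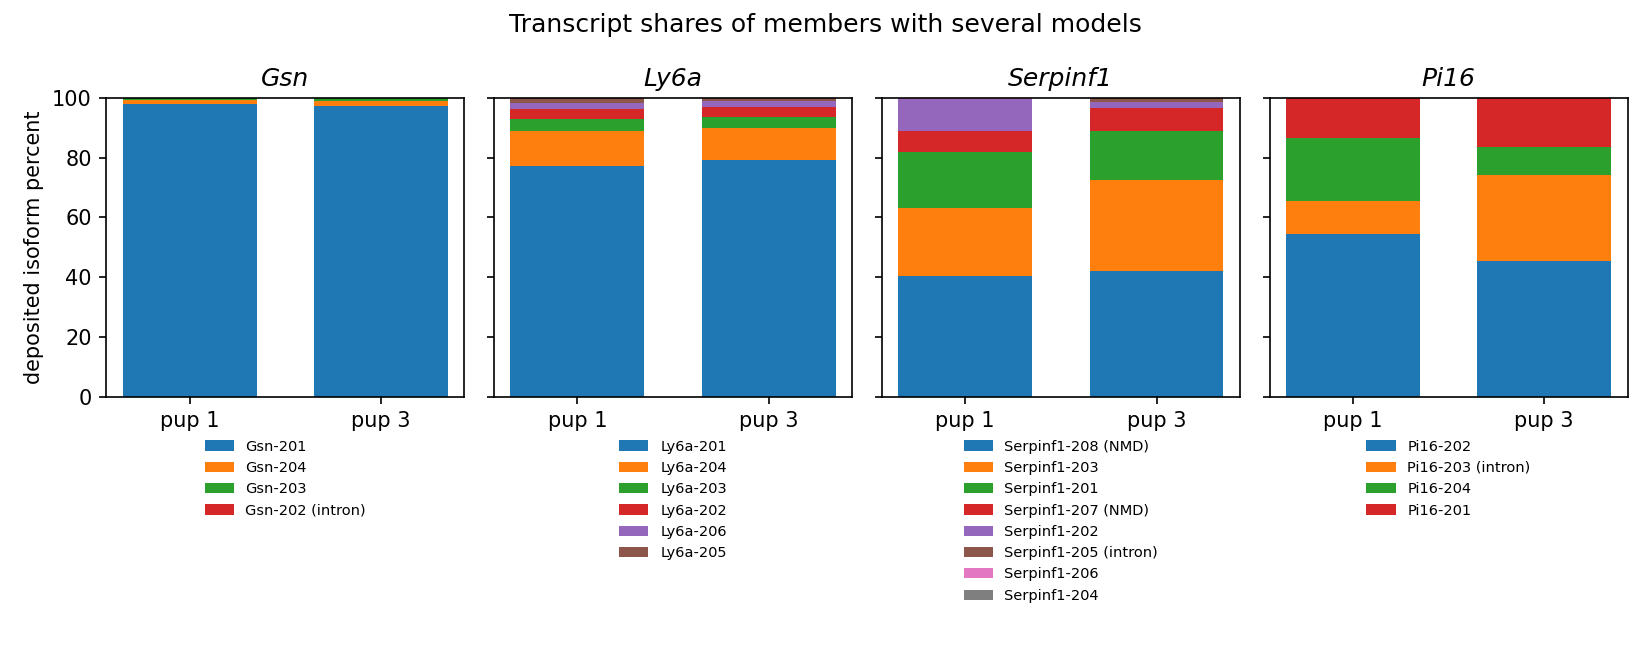
Deposited isoform percent of each transcript model (stacked bars) of Gsn, Ly6a, Serpinf1 and Pi16 in pup 1 and pup 3, where NMD marks nonsense-mediated decay models and intron marks retained-intron models. Gsn-201 and Ly6a-201 hold most of their genes, and no Serpinf1 model reaches 50% in either pup.

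Cytoglobin, the product of Cygb, is a globin of fibroblasts and related cells that consumes nitric oxide. Cygb (chromosome 11, 116645595 to 116654313, minus strand) stood at 28.2 TPM in pup 1 and 24.1 TPM in pup 3. It overlaps Prcd on the opposite strand by 780 bases, and 105 of the 2232 windows of 100 bases in Cygb-201 recur in Prcd transcripts. Prcd had 325 and 183 counts, against 2028 and 1477 for Cygb, and whether the authors' counting used strand is not given in the sources used here, so reads of the overlap cannot be placed on 1 gene with certainty. Of the 8 globin, reductase and nitric oxide synthase genes listed, Cyb5a (593 and 618 TPM) and Cyb5r3 (141 and 138 TPM), which can reduce cytoglobin, were the highest, followed by Cygb. Nos3, the endothelial synthase, stood at 23.30 and 17.98 TPM, and Ngb at 2.64 and 3.44 TPM. Mb (0.76 and 0.88 TPM) and Nos1 (0.04 and 0.02 TPM) were under TPM 1 in both pups.

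Scara5 encodes a class A scavenger receptor that takes up ferritin. Scara5 (chromosome 14, 65666403 to 65764826) stood at 6.62 TPM in pup 1 and 5.43 TPM in pup 3, on 789 and 551 counts. Scara5-201, which gives the 491-residue protein, held 99.8% and 99.7%. Among the 5 receptors listed, Colec12 (58.8 and 68.8 TPM) was the highest, 10.6-fold above Scara5 by mean TPM, and the macrophage receptor gene Marco followed at 6.91 and 7.81 TPM. Scara5 ranked 3 in mean TPM. The ferritin genes Ftl1 (5314 and 5149 TPM) and Fth1 (3553 and 3541 TPM) led the iron list, followed by the exporter gene Slc40a1 (20.4 and 18.1 TPM).

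Pi16 encodes a secreted protein of the CAP superfamily. Pi16 (chromosome 17, 29317680 to 29330593) was the lowest of the 9, at 2.51 TPM in pup 1 and 1.99 TPM in pup 3, on 185 and 130 counts. It lay above 10.3% of the detected genes and 2.68-fold below Scara5 by mean TPM. Its coefficient of variation, 16.3%, was the largest of the 9. Pi16-202, which gives the 498-residue protein, led with 54.4% and 45.4%, and the retained-intron model Pi16-203 held 11.1% and 28.9%, on 25.5 and 44.9 counts. Pi16-204 held 21.2% and 9.12%, and Pi16-201 held 13.4% and 16.6%. At these counts the shares rest on few reads. An antisense model, AC162182.1, overlaps the gene, and 126 of the 3895 windows of Pi16-202 recur in it. Like Gm43128 below, AC162182.1 has no count given for either pup, so its level is not known. Its part in the counts of Pi16 was not tested. The windows are of the M21 model of Pi16-202 with 3994 bases, whereas the deposited length is 2756.

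Pi16 ranked 4 in mean TPM among the 8 CAP superfamily genes listed. Ahead of it stood Glipr2 (33.5 TPM in pup 1 and 36.8 TPM in pup 3), Crispld2 (14.8 and 8.49 TPM) and Glipr1 (8.51 and 8.36 TPM). R3hdml (0.16 and 0.04 TPM) was under TPM 1, and Clec18a had 0 counts in both libraries. That allows a level of up to 0.0711 CPM, counts scaled to library size, in pup 1 and 0.0810 CPM in pup 3.

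Some features of the transcripts did not enter the choice of genes, and no share over all genes is given for them. All 9 are protein-coding, and 4 of them (Dpt, Dpep1, Clec3b and Cygb) have 1 model in the tables. In the 5 others the same model led in both pups. Serpinf1 and Cygb lie on chromosome 11, and the other genes are each on a chromosome of their own. For 7 of the 9, no exact 100-base window of the leading transcript recurred in another gene, and the exceptions were Cygb and Pi16. Dpt also overlaps the antisense gene Gm32569 (2 and 3 counts), and Dpep1 lies within Gm20388, a long gene on the same strand (0 and 0.01 counts), so almost no reads were given to either. The span of Gsn overlaps Gm43128 on the same strand by 1621 bases. Gm43128 is not among the quantified genes, so its level is not known. GC content of the leading transcripts ran from 48.1% in Ly6a to 60.2% in Clec3b.

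Further genes linked to adventitial fibroblasts were also present, but which cells of the whole lung gave their RNA was not tested. All 14 genes of that second list were detected, and they summed to 642 TPM in pup 1 and 737 TPM in pup 3. Cd34, a surface sialomucin that endothelial cells make too, stood at 166 and 176 TPM, Igfbp6, which binds insulin-like growth factors, at 108 and 96.5 TPM, and Il33, an alarmin cytokine, at 49.4 and 131 TPM. Dpp4, a surface peptidase found on Pi16-marked fibroblasts, stood at 35.7 and 37.8 TPM, Col14a1 at 17.2 and 18.5 TPM and Lum at 2.90 and 3.58 TPM. Dpp4, Col14a1, Lum and Dcn were named here after their values were seen. Pi16 thus stood below each of these markers in both pups.

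As a list, the 9 genes lay between the alveolar fibroblast and the mural lists. Lists were compared as the difference of mean log2(TPM + 1) within each library, a scale on which 1 unit is 2-fold. The 9 genes lay above 7 smooth muscle genes by 0.41 in pup 1 and 0.38 in pup 3 (0.40 ± 0.02), above 8 pericyte genes by 0.95 and 0.85 (0.90 ± 0.07, and 1.4997 with medians over genes in place of means) and above 6 mesothelial genes by 0.66 and 0.44 (0.55 ± 0.16). They lay below 8 alveolar fibroblast genes by a mean difference of -0.69 ± 0.06 and below 8 endothelial genes by -1.48 ± 0.17. They lay above the second adventitial list by 0.71 ± 0.20, above 6 leukocyte genes by 0.69 ± 0.07 and above 8 myofibroblast genes by 1.20 ± 0.17. Each difference had the same sign in both pups. Smooth muscle was led by Acta2 (287 and 252 TPM), Tagln (129 and 111 TPM) and Actg2 (106 and 95.2 TPM). Pericytes were led by Cox4i2 (201 and 181 TPM), Higd1b (122 and 98.2 TPM) and Gucy1a1 (89.1 and 94.5 TPM). Mesothelium was led by Msln (435 and 479 TPM), Nkain4 (96.28 and 100.02 TPM) and Upk1b (66.0 and 56.7 TPM). All genes of these 3 lists were at TPM 1 or more in both pups. An exact sign-flip test over 2 pups cannot give a p under 0.5, so none is given, and the choice of genes sets how high a list stands.

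**Figure D4:**
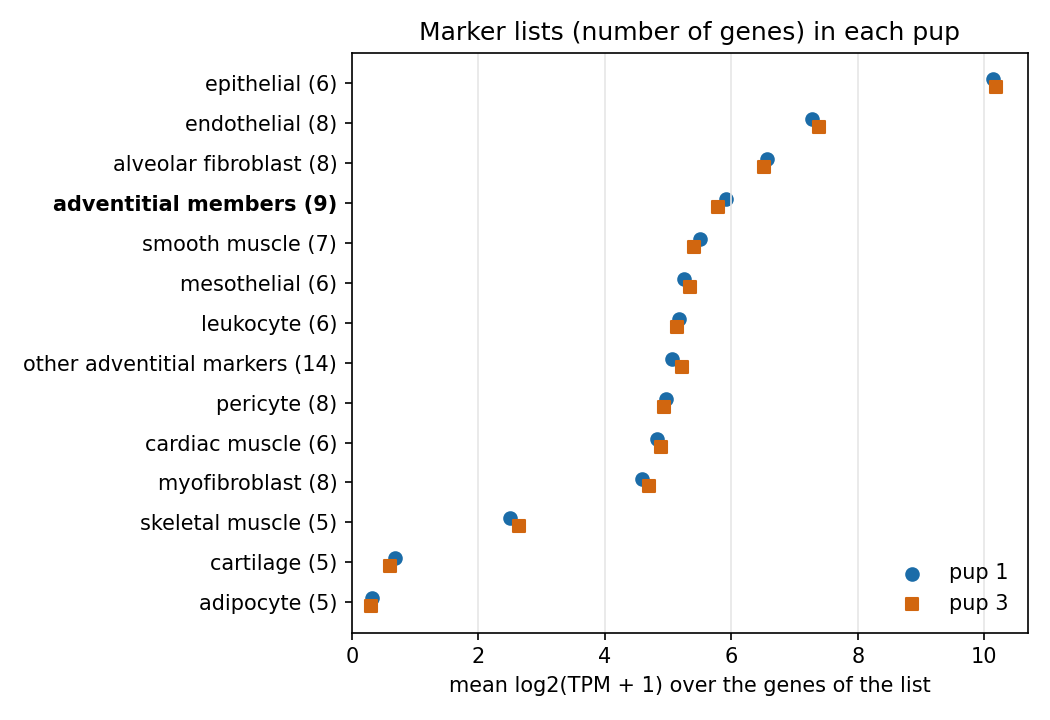
Mean log2(TPM + 1) over the genes of each marker list (number of genes in brackets) in pup 1 (circles) and pup 3 (squares). The adventitial list lies below the epithelial, endothelial and alveolar fibroblast lists and above the other 10 lists in both pups.

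Between the pups, none of the 9 genes differed by the size rule. That rule asks for a ratio of at least 2-fold in counts scaled between the libraries by the trimmed mean of M-values (TMM), at least 50 counts over both libraries and an exact conditional 95% interval of the ratio that leaves out 1, which covers counting error only. All 9 genes had enough counts. Over the 15790 genes with enough counts, 221 (1.40%) passed, 0.659% with the higher level in pup 1 and 0.741% with the higher level in pup 3, so 0 of 9 is close to what that share gives. By 2-fold of deposited TPM + 1, 0 of the 9 passed, against 0.538% of all tested genes. The comparison sets 1 library against 1 library and has no replicate check.

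Most of the 9 nevertheless had more scaled counts in pup 1. The log2 ratio of pup 1 over pup 3 was above 0 in 8 of the 9, against 51.0% of all tested genes. The interval left out 1, with the higher level in pup 1, for 7 of the 9, against 24.6% of all tested genes. Toward pup 3 it did so for none, against 21.6%. Intervals narrow as counts rise, and the tested genes include genes with as few as 50 counts, so these shares are not matched for counts. The median log2 ratio of the 9 was 0.26, against 0.01 over all tested genes. Scara5 had the largest ratio, 1.29-fold (95% interval 1.16 to 1.44), followed by Pi16 at 1.28-fold (1.02 to 1.62), Cygb at 1.24-fold (1.16 to 1.33) and Dpt at 1.24-fold (1.18 to 1.29). Ly6a stood at 1.20-fold (1.17 to 1.23), Serpinf1 at 1.19-fold (1.10 to 1.28) and Gsn at 1.12-fold (1.10 to 1.13). The intervals of Clec3b (1.03-fold, 0.971 to 1.10) and Dpep1 (0.996-fold, 0.960 to 1.03) held 1.

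In the 9725 genes whose counts reached 1000 when both pups were added, log2 ratios of the middle 68% lay between -0.15 and 0.18. Of the 9 genes, 6 lay above that range (Scara5, Pi16, Cygb, Dpt, Ly6a and Serpinf1) and 3 within it (Gsn, Clec3b and Dpep1). Pi16 itself had fewer than 1000 counts. Scara5 had a larger absolute ratio than 85.3% of tested genes. The size of the ratios depended on the scaling, and for 2 genes the direction did too. The log2 ratio of Gsn was 0.16 with TMM, 0.30 with spike-in scaling and 0.07 as deposited TPM + 1. The last 2 lie outside its TMM interval, which leaves out the counting error of the spike-ins. The median of the 9 was 0.26 with TMM, 0.41 with spike-in scaling and 0.17 as deposited TPM + 1. In deposited TPM, Dpep1 and Clec3b were higher in pup 3 and the other 7 were higher in pup 1, against 36.1% of all tested genes. Scaled by spike-in counts (317 and 316), all 9 were higher in pup 1, against 75.1% of tested genes. That scaling moved the median of all genes by 0.14 on the log2 scale. The spike-in counts are few, and their counting error was not carried into these ratios. Among cell type lists, the median log2 ratio was 0.26 for smooth muscle genes, as for the 9, and 0.05 for alveolar fibroblast genes, 0.09 for pericyte genes, -0.05 for mesothelial genes and -0.27 for cardiac muscle genes. The second adventitial list had a median of -0.04, below the value of 0.26 for the 9. The part of tissue composition in these ratios was not tested.

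**Figure D5:**
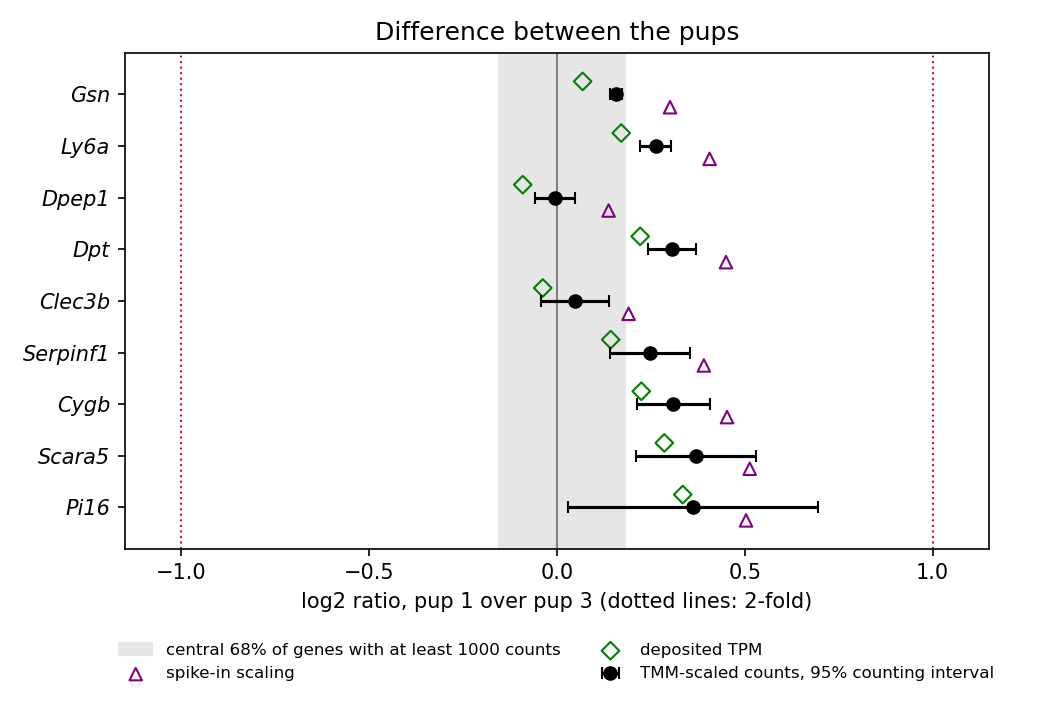
Log2 ratio of pup 1 over pup 3 for each of the 9 genes, as TMM-scaled counts with 95% counting intervals (filled circles), spike-in scaling (triangles) and deposited TPM (diamonds), with the central 68% of genes with at least 1000 counts shaded and the 2-fold bounds dotted. All points lie within the 2-fold bounds, and Dpep1 and Clec3b lie on both sides of 0 depending on the scaling.

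Of the 170 genes in the other lists, 148 had enough counts and 3 passed the size rule (2.03%, against 1.40% of all tested genes). Il33 was higher in pup 3, with 3856 counts in pup 1 and 8659 in pup 3 (2.49-fold, 2.40 to 2.59, as pup 3 over pup 1). Scin was higher in pup 3 as well, on the 40 and 80 counts given above (2.22-fold, 1.498 to 3.33, as pup 3 over pup 1). Ly6h was higher in pup 1, with 37 and 15 counts (2.23-fold, 1.19 to 4.37, as pup 1 over pup 3). Scin and Ly6h rest on few counts, and their ratios of deposited TPM + 1 were under 2-fold.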

How the data were processed

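Total RNA longer than 200 nt from lungs of 2 pups was sequenced from 10 ng per library, per the labels. The deposited gene and transcript tables were made on mm10 with annotation M4, per the text files deposited with them. The deposited expected counts and posterior mean counts are estimated counts. The deposited TPM is scaled by effective length, and the deposited isoform percent is a share of the gene, per the file headers. No label or header names the aligner or counter. The deposited bounds of TPM and the lengths, other values per the file headers, were described only.

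Members were matched by identifier to GENCODE M21, which named 42462 of 43346 genes. The members and lists were chosen with earlier results of these data known. Genes named are the 9 members, the 3 highest of each list and list genes under TPM 1 in both pups. 1 list gene is not reported here. Ratios used rounded expected counts, TMM factors from edgeR 4.0.16 under R 4.3.3 and a prior count of 0.5. The size rule was tested on simulated data. DESeq2 1.42.0 size factors, spike-in scaling, posterior means, a pseudocount of 0.1, filters and single pups were alternatives. Coding starts and exact 100-base windows came from M21 transcripts, and identities from global alignment (Biopython 1.88). Motifs were searched in RefSeq windows. A count of 0 allows 3 counts. PCR copies of 1 molecule are counted as separate reads here, so intervals and floors describe counting error alone.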

Additional observations from a re-analysis of the deposited data

How the results depend on the processing

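All 9 genes stayed at TPM 1 with posterior mean TPM, and 8 reached TPM 5, with Pi16 below. Detection in either pup alone follows from detection in both and is no further check. The count of overlapping neighbours stayed at 2 with posterior mean TPM, and a single pup gives no spread for it. The difference from smooth muscle genes was 0.42 and that from pericyte genes 1.4997 with medians over genes in place of means. The secreted share of Gsn was 99.5% by expected counts. In single pups the differences ran from 0.38 to 0.41 (smooth muscle), 0.85 to 0.95 (pericyte) and 0.44 to 0.66 (mesothelial), and the secreted share from 97.49% to 97.84%. Posterior mean TPM and a pseudocount of 0.1 moved the differences from these 3 lists by less than their SD. A filter at TPM 1 removed no gene of these lists or of the 9, so it could not change the differences. The other list differences were not recomputed. The size rule called 0 of the 9 genes under DESeq2 size factors, spike-in scaling, posterior mean counts, a 1.5-fold bound and deposited TPM + 1. Leaving out the count filter could not change this, since all 9 had at least 50 counts. The 1.5-fold bound called 799 genes in all (5.06%), no count filter 701 of 24690 and deposited TPM + 1 85, against 221. With DESeq2 size factors the log2 ratio of Dpep1 was 0.00111, against -0.01 with TMM. No paired analysis was possible because there is 1 group.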
